A study of Homo sapiens with 12 samples.

Results

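The cells described here are 491 non-cycling Nalm-6 leukemia cells, from the single-cell library labelled as induced for RUNX1, that carried RNA of C1orf141, LINC00967 or STON1-GTF2A1L. They were found in 3 steps among the 5491 barcodes of that library. First, 4800 cells passed a filter of more than 2000 and fewer than 6000 genes and under 20% mitochondrial UMIs (a UMI marks 1 captured RNA molecule). Second, the UMIs of 6 proliferation genes (MKI67, TOP2A, RRM2, TYMS, CENPF and CCNB1) were added per 10000 UMIs of each cell, and the 2400 cells of lower proliferation value were taken as non-cycling. Last, cells with 1 or more UMI of the 3 named genes were kept, which is 491 of the 2400 non-cycling cells (20.5%) and 10.2% of the passing cells. They are called members here, and the 1909 non-cycling cells with no UMI of the 3 genes are the cells they are set against. The members were thus chosen by measured values, so no test of members against other cells was made, and every difference is given as a description.

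Nalm-6 is an established human cell line of acute lymphoblastic leukemia of precursor B cells. In the library labelled RUNX1, cells carried a Tet-On regulator and a lentiviral response vector with RUNX1 cDNA, and were induced with 500 ng/ml doxycycline for 72 h before collection. The control library is labelled with the empty vector and 72 h, but its title names DMSO and its labels give no doxycycline for it, so vector, inducer and culture cannot be told apart from the RUNX1 label. Each group is 1 library, and the labels do not say whether the RUNX1 line is 1 clone. The members and the cells they are compared with come from 1 library, so they share the vector, the inducer and the processing. With 1 library there is no replicate check, and all intervals are 95% intervals that cover counting error only.

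A precursor B cell makes a pre-B cell receptor, in which the immunoglobulin heavy chain pairs with a surrogate light chain of VPREB1 and IGLL1. Signals through this receptor drive a burst of division, after which the cell leaves the cycle, lowers the surrogate light chain and rearranges its light chain genes. RUNX1 is a DNA-binding factor of blood stem cells and lymphoid precursors that binds DNA with its partner CBFB and with corepressors of the TLE family. C1orf141 encodes an uncharacterised protein, LINC00967 is a long non-coding RNA, and STON1-GTF2A1L is a readthrough of the neighbouring genes STON1, an endocytic adaptor, and GTF2A1L, a germ cell form of a general transcription factor. The counting may split reads of the readthrough among these 3 gene entries, so its level is uncertain.

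The promoters of C1orf141 and STON1-GTF2A1L are shown because these genes define the cells, and those of IL18RAP and CD96 because both genes stood far higher in the members (CD96 was chosen after its values were seen). Each runs from 250 bases before to 50 bases after the start site, from RefSeq on GRCh38.p14, and is written 5′ to 3′ along the gene. Capitals mark matches on either strand to the RUNX core TGTGGT or the ETS core GAGGAA, with the octamer ATTTGCAT searched in the same way.
C1orf141 (chromosome 1, 67134921 to 67135220, minus strand): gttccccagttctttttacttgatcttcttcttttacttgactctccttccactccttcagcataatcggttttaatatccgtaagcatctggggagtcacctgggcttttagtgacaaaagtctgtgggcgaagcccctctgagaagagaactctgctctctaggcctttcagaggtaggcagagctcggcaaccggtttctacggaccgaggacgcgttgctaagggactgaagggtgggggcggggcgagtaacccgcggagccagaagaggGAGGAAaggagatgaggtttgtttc
STON1-GTF2A1L, first start site (chromosome 2, 48529675 to 48529974, plus strand): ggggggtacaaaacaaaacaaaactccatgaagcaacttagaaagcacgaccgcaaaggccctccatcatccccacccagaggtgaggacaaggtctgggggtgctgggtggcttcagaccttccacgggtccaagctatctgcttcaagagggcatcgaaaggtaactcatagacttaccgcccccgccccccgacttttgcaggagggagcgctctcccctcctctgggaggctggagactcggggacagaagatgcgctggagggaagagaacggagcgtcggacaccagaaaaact
STON1-GTF2A1L, second start site (chromosome 2, 48568528 to 48568827, plus strand): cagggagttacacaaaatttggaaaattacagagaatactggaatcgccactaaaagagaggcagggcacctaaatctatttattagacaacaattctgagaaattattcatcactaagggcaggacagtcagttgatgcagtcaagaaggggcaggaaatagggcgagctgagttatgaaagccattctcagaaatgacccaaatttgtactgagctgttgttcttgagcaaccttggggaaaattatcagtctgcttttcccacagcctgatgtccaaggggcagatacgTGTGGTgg
IL18RAP (chromosome 2, 102418371 to 102418670, plus strand): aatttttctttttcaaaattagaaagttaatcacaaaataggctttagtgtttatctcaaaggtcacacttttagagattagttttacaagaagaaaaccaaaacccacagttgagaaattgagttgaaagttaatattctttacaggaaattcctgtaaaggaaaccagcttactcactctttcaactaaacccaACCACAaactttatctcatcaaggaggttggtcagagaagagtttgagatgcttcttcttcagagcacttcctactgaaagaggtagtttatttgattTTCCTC
CD96 (chromosome 3, 111541947 to 111542246, plus strand): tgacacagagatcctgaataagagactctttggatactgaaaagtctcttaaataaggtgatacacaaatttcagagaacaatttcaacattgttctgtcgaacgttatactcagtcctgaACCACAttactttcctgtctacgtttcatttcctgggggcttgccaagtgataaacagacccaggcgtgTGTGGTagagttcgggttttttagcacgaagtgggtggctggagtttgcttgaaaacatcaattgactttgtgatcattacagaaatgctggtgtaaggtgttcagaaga

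The capitals show 1 ETS core in the C1orf141 promoter and 1 RUNX core at the second start site of STON1-GTF2A1L. They also show 1 RUNX and 1 ETS core at IL18RAP, for its first listed start site only, and 2 RUNX cores at CD96. Such matches are common, since 13.1% of 35116 promoters hold the RUNX core, 27.9% the ETS core and 1.77% the octamer. Among the 203 genes with a promoter in the table that were at least 2-fold higher in the members, 13.3% held the RUNX core and 37.4% the ETS core. Among the 83 such genes that were at least 2-fold lower, 15.7% held the RUNX core and 53% the ETS core, and among 6162 measured genes 12.9% and 34.3% did. A match is a description of the letters and does not show a bound site.

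The members are first described by the proliferation value and the genes that chose them. Detection of the 3 genes was lower toward dividing cells. With the passing cells of this library split into 4 equal bins of 1200 cells by the proliferation value, low to high, any of the 3 genes was seen in 23.3%, 17.6%, 5.58% and 1.5% of cells. The value was 0 in 1902 cells, which fill the first bin and part of the second. Those cells were parted by file order only, so the first step is not one of proliferation among them. The highest proliferation value of a non-cycling cell was 1.04091 and the lowest of the other passing cells 1.04107. Of the 10 cells just under that limit 4 carried one of the genes, and of the 10 just over it 2 did, whereas among the nearest 200 on each side the numbers were 21 and 19. Among the nearest 200 the shares under and over the limit were thus close, and 85 of the 2400 cells above it carried one of the genes as well. The proliferation value was 0 in 88.8% of members and 76.8% of the other non-cycling cells. The files hold no mouse barcodes that would give a background share for free RNA, and the lowest share seen, in the bin of highest proliferation value, was 1.5%.

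**Figure D1:**
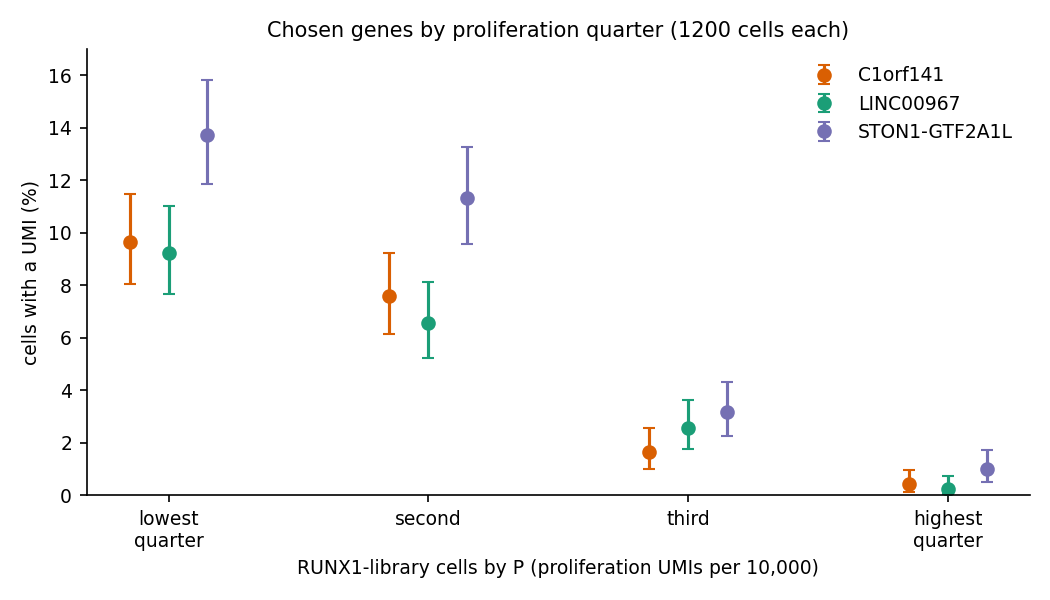
Percent of passing cells of the library labelled RUNX1 with a UMI of C1orf141, LINC00967 or STON1-GTF2A1L, by bin of the proliferation value from low to high, with exact binomial 95% intervals (1200 cells in each). Each gene is seen in fewer cells toward the high end, where STON1-GTF2A1L is at 1.00% of cells, against 13.8% at the low end.

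None of the 3 genes had a UMI in the control, and each was seen in a minority of RUNX1-library cells. On GRCh37, the build called hg19 in the labels, C1orf141 (ENSG00000203963) spans chromosome 1 from 67557848 to 67697536 on the minus strand. LINC00967 (ENSG00000253138) spans chromosome 8 from 67104328 to 67109550, and STON1-GTF2A1L (ENSG00000068781) spans chromosome 2 from 48757064 to 49003656, both on the plus strand. None had a UMI in 5598 passing control cells, which allows a share of up to 0.0659% of cells with a UMI (exact Clopper-Pearson). In the members C1orf141 had 1565 UMIs in 207 cells (42.2%), a level of 293 CPM (UMIs per 1000000 UMIs of the group, 279 to 308). LINC00967 had 853 UMIs in 190 members (38.7%, 160 CPM), and STON1-GTF2A1L had 823 UMIs in 301 members (61.3%, 154 CPM). One cell held up to 58 UMIs of C1orf141, 25 of LINC00967 or 13 of STON1-GTF2A1L. Members differed widely among themselves, with 1 UMI of the 3 genes in 139 cells, a median of 3 and a highest value of 58. The 105 members with 10 or more UMIs held 61.7% of the members' UMIs of these genes.

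The genes overlapped in part. Of the members, 314 carried 1 of the genes, 147 carried 2 and 30 carried all 3. STON1-GTF2A1L alone marked 140 cells, C1orf141 alone 102 and LINC00967 alone 72. Among non-cycling cells, STON1-GTF2A1L was seen in 43.0% of cells with C1orf141 (36.2 to 50.0, exact Clopper-Pearson) and 9.67% of cells without it, and in 53.7% of cells with LINC00967 and 9.00% without. C1orf141 was seen in 24.2% of cells with LINC00967 and 7.29% without. After each cell was thinned to 8000 UMIs, STON1-GTF2A1L was seen in 40.6% of cells with C1orf141 and 5.99% without, so the overlap stood at equal depth as well. This overlap is a description, since the same values chose the members.

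Members were shallower than the cells they were compared with. Their median was 9735 UMIs and 2860 genes, against 11675 UMIs and 2983 genes in the other non-cycling cells, although a rule of 1 or more UMI favours deep cells. The median mitochondrial share was 14.3% in members and 13.3% in the other cells. The nuclear non-coding RNAs MALAT1 and NEAT1 were at 28422 and 1307 CPM in members, against 15919 and 805 CPM in the other cells. The part of depth and RNA quality in the results was not tested, but the thinned comparison and the other scalings are given where they change a value. The libraries shared 12 cell barcodes, 2 of them members. Doublets were not called or removed.

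The members carried RNA of B precursor marker genes, but most of the measured markers were lower than in the other cells. Of 11 measured B precursor markers 1 was higher and 6 were lower by 0.5 or more on the log2 scale, shares to be read against 16.6% and 5.23% of all measured genes, with a median of -0.69. The 5 markers at least 2-fold lower were DNTT, BLNK, IGLL1, MME and VPREB1, whose levels are given below. Among markers that were not lower, CD79A, a signalling chain of the B cell receptor, was at 524 CPM in members and 499 CPM in the other cells. PAX5 and EBF1, the factors that hold B cell identity, were at 108 and 245 CPM in members, against 98.0 and 210 CPM. Of 16 T cell markers 4 were measured, and 9, CD3D, CD3G and CD2 among them, had 0 UMIs in the members. Summed T cell markers were at 107 CPM in members and 100.5 CPM in the other cells. Of 12 NK cell markers 3 were measured (NKG7, GZMA and FGFBP2), and NCAM1, KLRF1, NCR1, GZMB and FCGR3A had 0 UMIs. Summed NK cell markers were at 178 CPM in members and 116 CPM in the other cells, and their part in the results was not tested. GZMA gave 100 and 65.1 CPM of these sums. Among cells with 3 or more Y-linked UMIs it was seen in 7.60% of members and 10.9% of the other cells. With 0 such UMIs these shares were 9.43% and 10.4%. None of the erythroid and mast cell markers was measured.

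RUNX1 itself (ENSG00000159216, chromosome 21, 36160098 to 37376965) did not mark the members. It had 156 UMIs in members (29.2 CPM) and 651 in the other non-cycling cells (27.7 CPM), a log2 ratio of 0.08 (-0.19 to 0.33). A RUNX1 UMI was seen in 24.8% of members and 24.7% of the other cells. The control had 69.7 CPM, so the label of the library is not shown by this count. The sources do not say whether the cDNA of the construct holds the 3′ end that the assay reads. Among partners and corepressors, TLE1 was at 163 CPM in members and 58.0 CPM in the other cells (log2 1.49, 1.37 to 1.61), TLE4 at 208 and 137 CPM, and CBFB at 31.1 and 23.4 CPM. Of 7 measured genes of this list 2 were higher and 1 was lower by 0.5 or more on the log2 scale, with a median of 0.41.

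Beyond the 3 genes, 313 of 8139 measured genes (3.85%) stood 2-fold or more above the other non-cycling cells in members and 118 (1.45%) stood 2-fold or more below. A gene counted as measured at 10 CPM or more in either group with a UMI in at least 5% of the cells of either group. The median over all measured genes was a log2 ratio of 0.14, so that a ratio near 0 lay below most genes. Of the genes past 2-fold 72.6% were higher, a split that depended on scaling: with TMM factors of edgeR 181 genes were higher and 194 lower (48.3% higher), at a median of -0.10. A log2 ratio of 0.5 or more was reached by 16.6% of measured genes and one of -0.5 or less by 5.23%, and the lists are read against these shares.

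**Figure D2:**
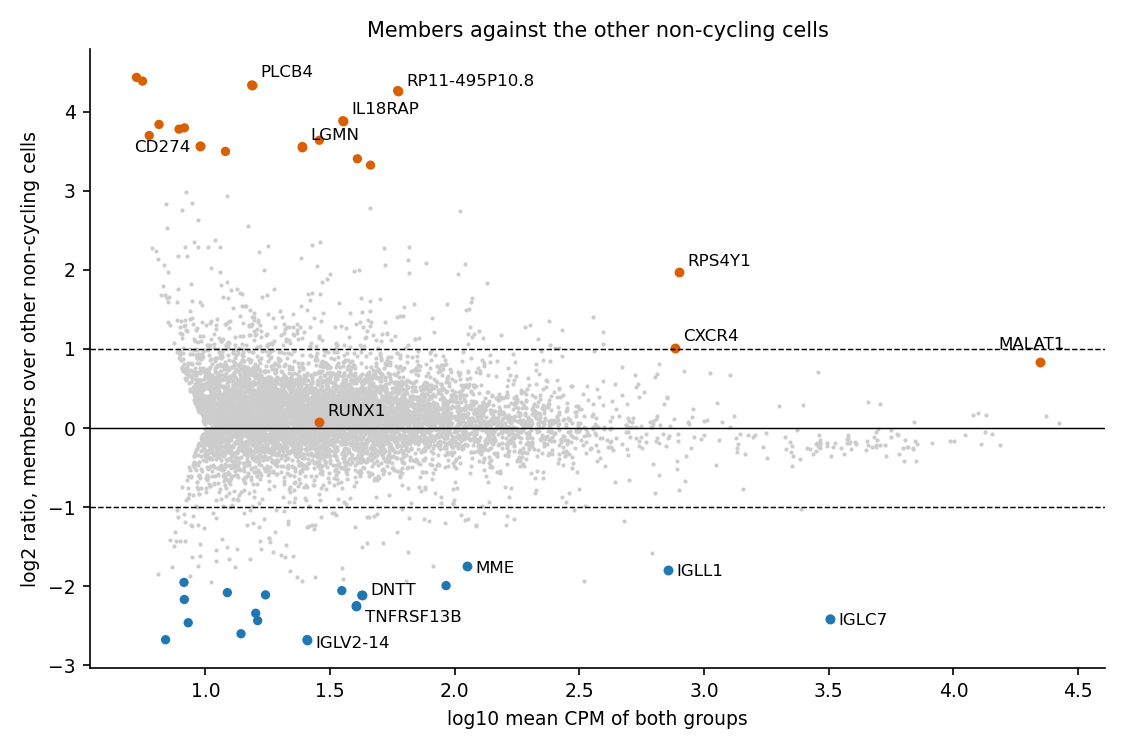
Log2 ratio of members over the other non-cycling cells against the log10 of the mean CPM of both, 1 point for each of 8139 measured genes, with the 15 highest and 15 lowest marked. PLCB4 and IL18RAP lie at 4.33 and 3.88 and IGLC7, TNFRSF13B and DNTT between -2.42 and -2.11.

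The 15 highest genes included 7 long non-coding or unnamed transcripts, and their protein-coding members had unlike known roles. The highest ratios were those of the non-coding transcripts AC005019.3, at 10.1 CPM in members and 0.468 CPM in the other cells, and AC092580.4, at 10.7 and 0.511 CPM. IL18RAP, the accessory chain of the interleukin-18 receptor, was at 66.7 CPM in members (59.9 to 74.0) and 4.51 CPM in the other cells (3.70 to 5.46), a log2 ratio of 3.88 (3.57 to 4.21). It was seen in 41.8% of members and 3.09% of the other cells, or 31.4% and 1.40% after thinning. PLCB4, a phospholipase C that signals below G protein-coupled receptors, was at 29.2 CPM in members and 1.45 CPM in the other cells (log2 4.33, 3.79 to 4.92). LGMN, a lysosomal protease, was at 45.1 and 3.83 CPM, and CD274, the immune checkpoint ligand PD-L1, at 17.6 and 1.49 CPM. The detoxifying enzyme GSTM1 was at 11.1 CPM in members and 0.852 CPM in the other cells, and its relatives of the GSTM family are close copies among which reads may be split.

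The 15 highest genes also held NCKAP1, part of the WAVE complex of actin assembly, and VWA5A. Of the non-coding or unnamed transcripts, RP11-495P10.8 was at 112 CPM in members and 5.83 CPM in the other cells, RP3-428L16.2 at 83.5 and 8.35 CPM, and LINC01087 at 53 and 4.26 CPM. AC007278.3 overlaps IL18RAP on the same strand, so reads may be shared between them. CD96, an immunoglobulin-family receptor known from T and NK cells, was at 183 CPM in members and 27.3 CPM in the other cells (log2 2.75, 2.60 to 2.89). None of the 10 measured genes that lie within 500 kb of C1orf141, LINC00967 or STON1-GTF2A1L was past 2-fold. Among neighbours too low to be measured, GTF2A1L was at 9.18 CPM in members and 0.383 CPM in the other cells. Near LINC00967, TRIM55 was at 4.31 and 0.213 CPM and CRH at 1.31 and 0.0852 CPM. Near STON1-GTF2A1L, RP11-191L17.1 went the other way, at 0.187 and 0.724 CPM. Such values rest on few UMIs.

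Genes of the pre-B cell receptor were lower in members over all non-cycling cells. As a list they were less so among cells with 0 Y-linked UMIs, as given below. Of 19 measured genes of this receptor and its signalling, 0 were higher and 13 lower by 0.5 or more on the log2 scale, with a median of -0.74. IGLL1 was at 322 CPM in members (307 to 338) and 1114 CPM in the other cells (1100 to 1127), a log2 ratio of -1.79. It was seen in 48.7% of members and 91.3% of the other cells. VPREB1 was at 1608 CPM in members and 3275 CPM in the other cells (-1.03). BLNK, the adaptor that links the receptor to phospholipase C, was at 11.8 and 43.4 CPM (-1.88, -2.27 to -1.51), CD79B at 338 and 543 CPM, and IGHM, the mu heavy chain, at 388 and 612 CPM. The kinase LYN was at 27.4 and 27 CPM.

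Light chain constant genes were lower too, not higher. IGLC7 was at 1014 CPM in members and 5409 CPM in the other cells (log2 -2.42, -2.46 to -2.38), and IGLC3 at 138 and 525 CPM. IGLC4, IGLV2-14 and the lambda locus transcript KB-208E9.1 were also among the 15 lowest. The lambda genes are near-identical copies of each other and close to the surrogate light chain genes in sequence, so the count of each is uncertain. Of 8 listed light chain genes 5 had 0 UMIs in the members, IGKC, the kappa constant gene, among them. In the other cells 5 of the 8 had 0 UMIs as well. Chromosome 22, which holds the lambda genes, VPREB1 and IGLL1, gave 2.28% of nuclear UMIs in members and 3.25% in the other cells.

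Genes of other steps of B cell maturation were lower in part. A list of MHC class II genes and genes of mature B cells had 18 measured members, 0 of them higher and 9 lower, at a median of -0.46. TNFRSF13B, the receptor TACI for B cell survival factors, was at 14.0 CPM in members and 66.6 CPM in the other cells (-2.25, -2.60 to -1.91). HLA-DPA1, a chain of a class II molecule, was at 197 and 402 CPM, and CD74, the class II chaperone, at 584 and 1005 CPM. A list of early B cell and V(D)J joining genes had 14 measured, 2 of them higher and 4 lower, at a median of -0.13. DNTT, which adds bases at V(D)J joints, was at 15.9 CPM in members and 68.9 CPM in the other cells (-2.11), MME, the common leukemia antigen CD10, at 51.3 and 172 CPM (-1.75), and TCL1A, a coactivator of AKT, at 311 and 927 CPM (-1.58). On the higher side of this list RAG2, a subunit of the V(D)J recombinase, was at 17.6 and 11.3 CPM (0.64) and ADA, adenosine deaminase, at 140 and 90.6 CPM (0.63).

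B lineage transcription factors moved both ways. Of 23 measured, 6 were higher and 6 lower, with a median of 0.14, close to that of all genes. ID3, an inhibitor of E proteins, was at 15 CPM in members and 56.1 CPM in the other cells (-1.90, -2.25 to -1.58), while its relative ID2 was at 325 and 157 CPM. SPIB, an ETS-family factor, was at 107 and 238 CPM (-1.16), and IKZF2, an Ikaros-family factor, at 175 and 74.6 CPM (1.23). FOXO1, which acts in non-dividing precursors, was at 35.4 and 19.5 CPM.

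Stress and lysosome lists differed among themselves. Immediate early genes were measured for 16 list members, 7 higher and 2 lower with a median of 0.25. JUN was at 342 CPM in members and 134 CPM in the other cells (log2 1.35, 1.27 to 1.44) and FOS at 115 and 49.5 CPM. Targets of the glucocorticoid receptor had 10 measured genes, 5 higher and 0 lower at a median of 0.35, with TXNIP, an inhibitor of thioredoxin, at 153 and 73.5 CPM. Of 16 lysosome and autophagy genes 7 were higher and 2 lower (median 0.39), with GABARAPL1 at 34.1 and 14.0 CPM and CTSZ at 24.9 and 48.6 CPM. CTSZ was not lower in members among cells with 3 or more Y-linked UMIs, as given below. Of 18 p53 targets 6 were higher and 2 lower (median 0.34), with BBC3, a cell death activator, at 79.8 and 35.6 CPM and CDKN1A, the cell cycle inhibitor p21, at 102 and 68.3 CPM. Heat shock genes did not lean to the higher side, with 1 of 13 higher and 2 lower at a median of 0.02, DNAJB1 at 65.0 CPM in members and 35.8 CPM in the other cells and HSPA5, a chaperone of the endoplasmic reticulum, at 152 and 269 CPM. Of 16 integrated stress response genes 2 were higher and 4 lower (median -0.10), with CEBPB at 214 CPM in members and 94.4 CPM in the other cells and SLC7A5 at 6.93 and 15.2 CPM.

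CXCR4, the receptor that holds precursor B cells in bone marrow, was at 1022 CPM in members and 506 CPM in the other cells (log2 1.02, 0.97 to 1.06). CD44, a receptor for hyaluronan, was at 43.8 and 13.6 CPM (1.69), and ITGB1, the common beta1 integrin chain, at 98.5 and 44.8 CPM (1.14). Of 7 measured marker genes of DUX4-type leukemia 4 were higher and 0 lower (median 0.55), with CLEC12A, an inhibitory lectin, at 178 CPM in members and 42.4 CPM in the other cells. Of 25 MYC targets and ribosome assembly genes 0 were higher and 6 lower (median -0.38), with ODC1, the first enzyme of polyamine synthesis, at 67.1 and 130 CPM and NME1 at 125 and 212 CPM.

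**Figure D3:**
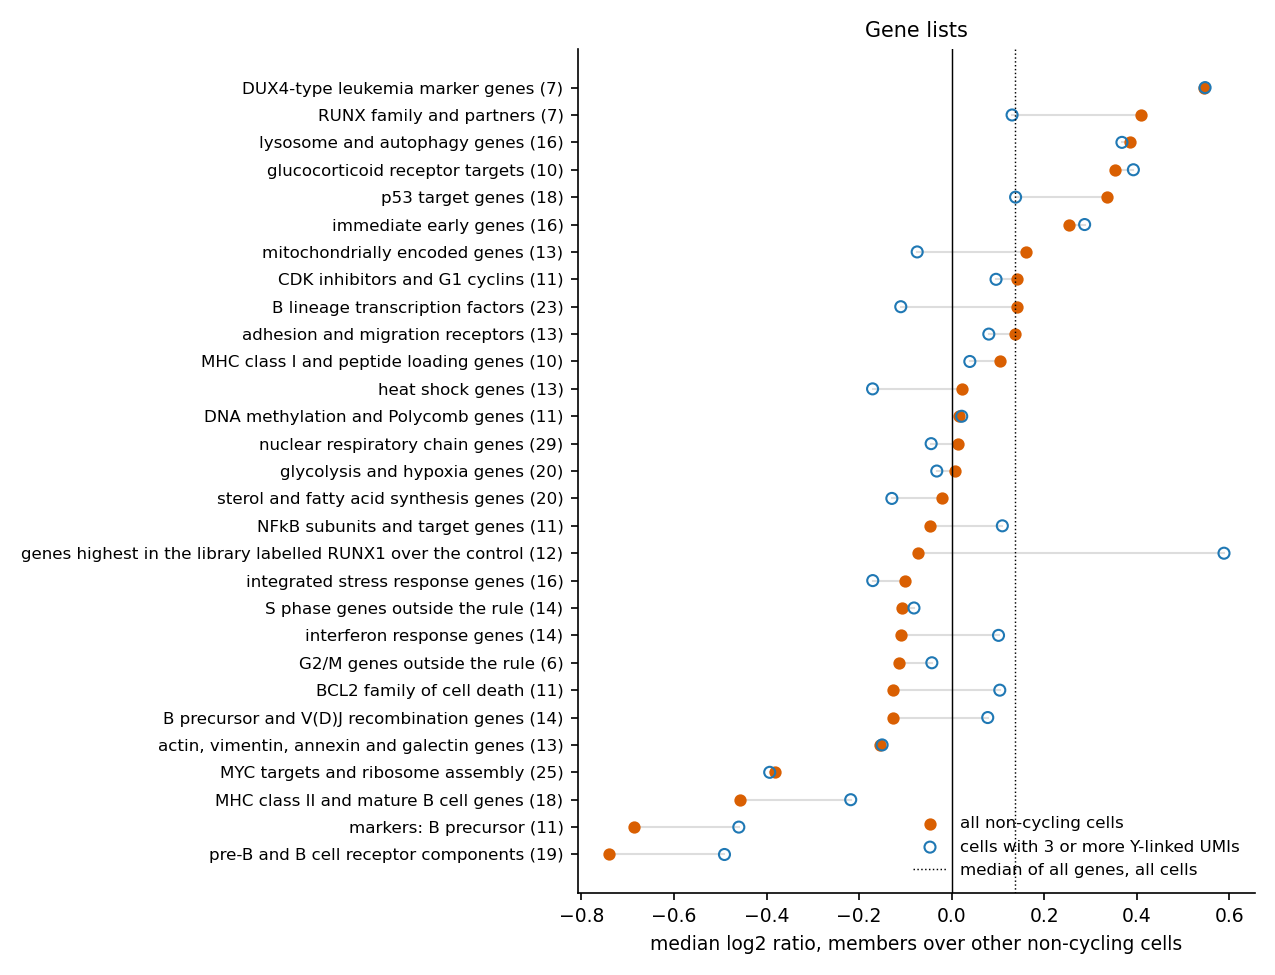
Median log2 ratio of members over the other non-cycling cells for each list with 5 or more measured genes (their number in parentheses; the Y-linked list is left out), over all non-cycling cells and over cells with 3 or more Y-linked UMIs. The pre-B receptor list lies at -0.74 and -0.49, and the MYC target list at -0.38 and -0.39.

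Y-linked genes separated most members from most of the other non-cycling cells. The library labelled RUNX1 held cells with many Y-linked UMIs and cells with none. By 10 listed Y-linked genes, 434 of the 491 members (88.4%, 85.2 to 91.1) had 3 or more such UMIs, 4 had 1 or 2 and 53 had 0, against 466 of 1909 other non-cycling cells (24.4%, 22.5 to 26.4) with 3 or more, 64 with 1 or 2 and 1379 with 0. In the control 98.3% of cells had 3 or more. The limit of 3 was set after the data were seen. RPS4Y1, a ribosomal protein gene of the Y chromosome, was at 1260 CPM in members and 322 CPM in the other cells. The members with 3 or more and with 0 Y-linked UMIs had medians of 9749 and 9496 UMIs, and the other cells of the same kinds 12486 and 11399.

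**Figure D4:**
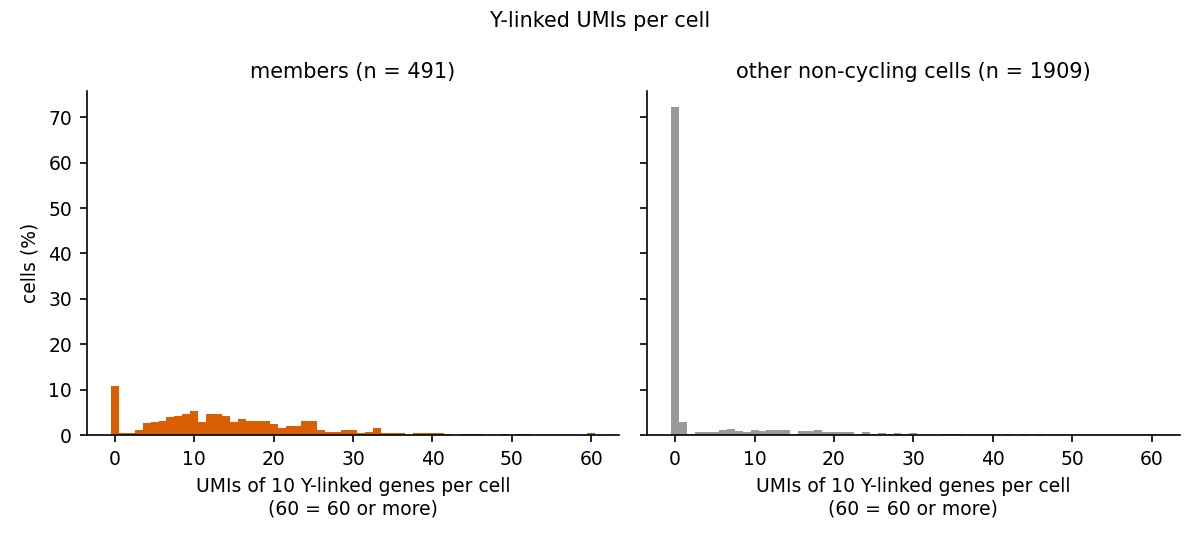
Share of cells by number of UMIs of 10 Y-linked genes in the 491 members and the 1909 other non-cycling cells. In the members 53 cells had 0 such UMIs, against 1379 of the other cells.

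Seen from the other side, one of the 3 genes was present in 434 of 900 non-cycling cells with 3 or more Y-linked UMIs (48.2%, 44.9 to 51.5) and in 53 of 1432 with 0 (3.70%, 2.78 to 4.81). The share of members with 3 or more Y-linked UMIs was 74.8% at 1 UMI of the 3 genes, 88.8% at 2 to 4, 97.1% at 5 to 9 and 97.1% at 10 or more. By gene it was 97.9% of members with LINC00967, 91.0% with STON1-GTF2A1L and 84.1% with C1orf141. Above the limit of proliferation, 71 of 85 cells with one of the genes (83.5%) had 3 or more, against 690 of 2315 without (29.8%).

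The comparison was therefore repeated among cells with 3 or more Y-linked UMIs, 434 members against 466 other cells, an alternative chosen after seeing the data. Of 8166 measured genes 122 (1.49%) stood 2-fold or more above and 64 (0.784%) 2-fold or more below. Of these, 98 had been higher over all non-cycling cells, which is 31.3% of the 313 and 80.3% of the 122, and 48 had been lower, which is 40.7% of the 118 and 75% of the 64. Among these cells 11.5% of measured genes had a log2 ratio of 0.5 or more and 4.16% one of -0.5 or less, and of 20 measured pre-B receptor genes 0 were higher and 10 lower, at a median of -0.49. Of 18 p53 targets 2 were higher and 1 lower (median 0.14), of 16 immediate early genes 3 were higher and 3 lower (0.29), and of 16 lysosome and autophagy genes 6 were higher and 1 lower (0.37). Of 17 MHC class II and mature B cell genes 0 were higher and 4 lower (-0.22), of 14 early B cell and V(D)J genes 0 were higher and 3 lower (0.08), and of 9 targets of the glucocorticoid receptor 2 were higher and 0 lower (0.39). The 7 RUNX family and partner genes had a median of 0.13, with 1 higher and 1 lower, and the 24 B lineage factors one of -0.11. IL18RAP, PLCB4 and CD96 kept their direction. IL18RAP was at 73.6 CPM in members and 16.5 CPM in other cells of this kind, against 0.362 CPM in the other cells with 0 Y-linked UMIs. PLCB4 was at 31.6, 4.12 and 0.543 CPM in the same groups, and CD96 at 198, 87.7 and 5.62 CPM.

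Among cells with 0 Y-linked UMIs, 53 members against 1379 other cells, the medians of some of these lists were closer to 0. Of these 53 members, 34 had only 1 UMI of the 3 genes. There 306 of 8106 measured genes (3.77%) stood 2-fold or more above and 263 (3.24%) 2-fold or more below. In all, 17% of these genes had a log2 ratio of 0.5 or more and 11.1% one of -0.5 or less, with a median of 0.06 over all of them. Of 20 pre-B receptor genes 1 was higher and 4 were lower, at a median of -0.03. VPREB1 turned to the higher side, at 4069 CPM in members and 3498 CPM in the other cells of this kind (log2 0.22, 0.16 to 0.28). IGLL1 and BLNK stayed lower, IGLL1 at 967 and 1245 CPM (-0.36, -0.49 to -0.24) and BLNK at 27.8 and 50.5 CPM (-0.86, -1.68 to -0.15). Of 19 MHC class II and mature B cell genes 3 were higher and 3 lower (-0.05), and of 9 targets of the glucocorticoid receptor 3 were higher and 0 lower (0.02). Of 13 early B cell and V(D)J genes 1 was higher and 5 were lower (-0.36).

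For several genes lower in members the order of the groups ran the other way. IGLC7 was at 741 CPM in members with 3 or more Y-linked UMIs, 3184 CPM in the other cells with 3 or more and 6197 CPM in the other cells with 0. IGLL1 was at 244, 730 and 1245 CPM, MME at 44.6, 132 and 185 CPM, TNFRSF13B at 8.70, 27.9 and 80.6 CPM, and DNTT at 17.4, 58.5 and 72.4 CPM. The members thus differed from the other cells with Y-linked RNA in the same direction as from all other non-cycling cells in these genes, by smaller ratios. Other genes did not follow. UPB1, an enzyme of pyrimidine breakdown among the 15 lowest, was at 4.03 CPM in members and 3.79 CPM in the other cells with 3 or more Y-linked UMIs, against 25.7 CPM in those with 0. CTSZ was at 22.1 CPM in members and 18.1 CPM in the other cells with 3 or more (log2 0.28, -0.12 to 0.68). In cells with 0 it was at 50.4 and 60.1 CPM (-0.25, -0.84 to 0.28). FCER1G, the gamma chain of Fc receptors, was at 244 CPM in all members and 311 CPM in all other cells. It was higher in members in both kinds of cells, at 218 and 162 CPM among those with 3 or more Y-linked UMIs. Among those with 0 it was at 459 and 368 CPM (log2 0.32, 0.14 to 0.50).

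**Figure D5:**
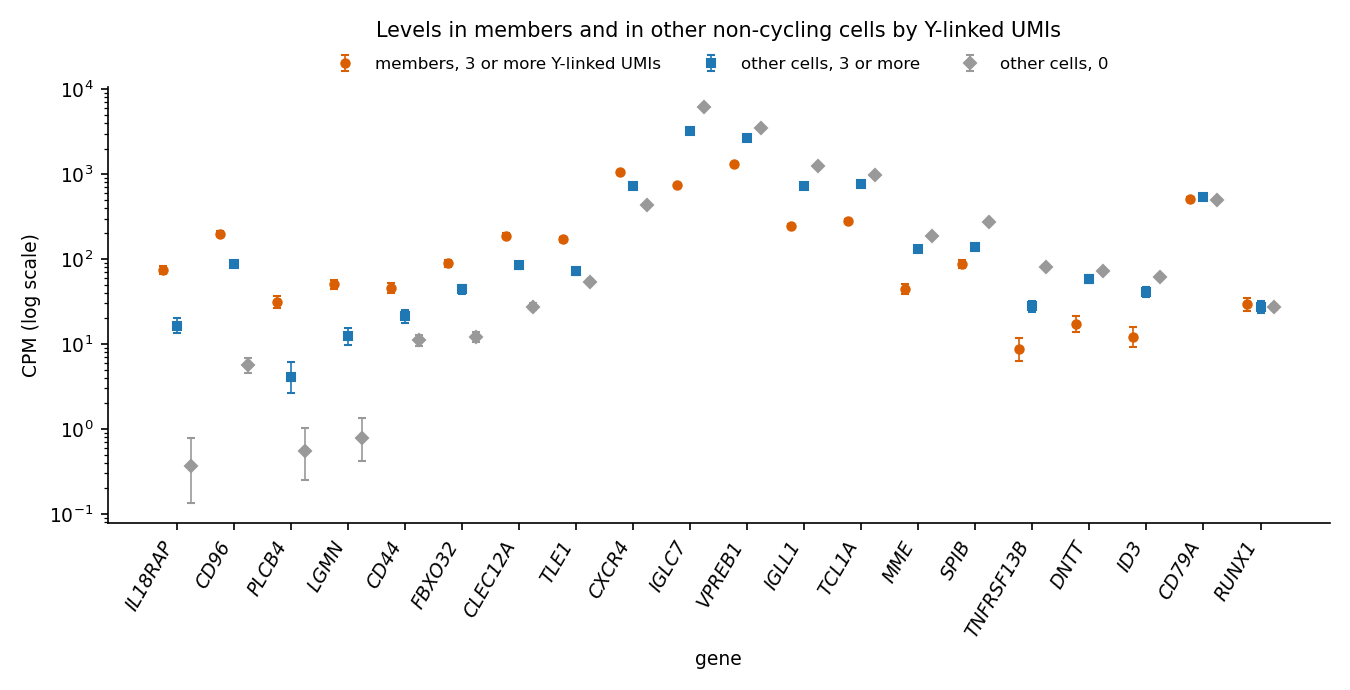
Levels (CPM, log axis) of named genes in members with 3 or more Y-linked UMIs, other non-cycling cells with 3 or more and other non-cycling cells with 0, with exact Poisson 95% intervals. IL18RAP stands at 73.6, 16.5 and 0.362 CPM in these groups, and IGLC7 at 741, 3184 and 6197 CPM.

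Levels are also given by the number of UMIs of the 3 genes, as a description only, since those UMIs chose the members and all but RUNX1 of the genes given were picked for their difference. In cells with 0 (the other non-cycling cells), 1, 2 to 4, 5 to 9 and 10 or more such UMIs, in that order, IL18RAP was at 4.51, 33.4, 53.1, 71.1 and 127 CPM. IGLL1 was at 1114, 609, 302, 178 and 80.7 CPM over the same cells, and TNFRSF13B at 66.6, 23.5, 23.5, 1.82 and 0 CPM. JUN was at 134, 243, 369, 382 and 411 CPM. RUNX1 showed no such order, at 27.7, 27.8, 31.6, 37.0 and 20.8 CPM. The share of cells with 3 or more Y-linked UMIs differed over the same bins, at 24.4%, 74.8%, 88.8%, 97.1% and 97.1%, and its part in these levels was not tested.

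Clusters made without the 3 genes gathered most members in one place. Of 6 clusters of the 2400 non-cycling cells, cluster 2, of 516 cells, was 63.0% members (58.7 to 67.2) and held 66.2% of members and 10.0% of the other cells. Cluster 1, of 402 cells, was 30.6% members, and the other 4 clusters held between 0.730% and 4.24%. Cells with 3 or more Y-linked UMIs made up 94.4% of cluster 2, 85.8% of cluster 1 and 0.966% to 22.9% of the others. The median of cluster 2 was 8073.5 UMIs, against 8980 to 17521 in the other clusters, and the part of depth was not tested. Cluster 2 was led by MRAS, APOD, AC007278.2, AC005019.3 and LGMN, none of them a B precursor marker, and is left unnamed. On average 61.6% of the 20 nearest neighbours of a member were members, against 9.30% for the other cells, and among cells with 3 or more Y-linked UMIs the means were 66.5% and 28.8%. The 53 members with 0 Y-linked UMIs had a mean of 21.5% and a median of 10%, against a mean of 2.93% for the other cells with 0, and the 139 members with 1 UMI of the 3 genes had a mean of 40%. With the Y-linked genes left out of the clustering as well, the neighbour means were 61% and 9.35%.

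The 85 cells of higher proliferation value with one of the 3 genes resembled the members in part. IL18RAP was at 66.7 CPM in members, 31.5 CPM in these 85 cells and 0.636 CPM in the higher-proliferation cells without the genes, and LGMN at 45.1, 37.1 and 0.599 CPM. IGLC7 was at 1014, 3876 and 7250 CPM in the same groups, and DNTT at 15.9, 120 and 277 CPM. CCL3 or CCL4, chemokine genes seen in many RUNX1-library cells, had a UMI in 52.5% of members and 53% of the other non-cycling cells. CCL3 was nevertheless at a higher level in members, at 97.6 and 57.8 CPM among cells with 3 or more Y-linked UMIs (log2 0.75, 0.55 to 0.96) and at 130 and 77.95 CPM among cells with 0 (0.74, 0.38 to 1.08). CCL4 was at 68.9 CPM in members and 50.9 CPM in the other cells with 3 or more (0.44, 0.21 to 0.67) and at 104 and 102 CPM among those with 0 (0.03, -0.36 to 0.40). Among the other cells with CCL3 or CCL4, IL18RAP was at 4.81 CPM and IGLL1 at 1077 CPM, both nearer to the rest of the non-cycling cells than to the members.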

How the data were processed

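Single-cell RNA-seq was made with the 10x Genomics Chromium 3′ assay. The authors used Cell Ranger 3.0.2 with human hg19 and mouse mm10 references, per the labels, and the deposited matrices hold raw UMI counts. Lanes also held mouse cells, whose barcodes are not in the files used. The library labelled RUNX1 gave 75350615 UMIs over its passing cells, the control 75754137. Groups come from the genotype labels. The members and lists were chosen with earlier results of these data known. The 10 ChIP-seq samples were not analysed here. Values of some genes under the rule for named genes are not reported here.

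UMIs were summed over cells and scaled to CPM. Levels have exact Poisson, shares Clopper-Pearson and ratios conditional binomial intervals. Named genes are the 15 highest and 15 lowest ratios, up to 3 genes of each list with the largest ratios in size, and RUNX1. Genes under 4 UMIs in a group were ranked against a floor of 3 UMIs. Other genes, among them CD96, VPREB1, FOS, MALAT1, NEAT1 and further list genes, were chosen after their values were seen. Lists are counted at 0.5 on the log2 scale.

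Clustering used scanpy 1.11.5 with Leiden resolution 0.5 on 20 neighbours in 10 principal components of 2000 variable genes. Thinning to 8000 UMIs left out 166 members and 342 other cells. Gene positions (GENCODE v44lift37, GRCh37) matched 55538 of 57905 identifiers. For TMM factors edgeR 4.0.16 (R 4.3.3) was used, and other work used Python 3.11.15. Simulated Poisson counts for the 8139 genes of this comparison, drawn as group sums, were put through the same ratios and intervals. Of 100 genes changed 4-fold 100 passed 2-fold, of 100 changed 1.5-fold 2 did, and of 7939 unchanged genes 0 did. In all, 95.5% of intervals held the true ratio. The simulation had no spread among cells, no choice of members and no gene floor. Its intervals rest on the same counting model, so their coverage does not bear on the spread among real cells. Alternatives changed the genes and UMIs that make a member, depth, cell filter, scaling, gene floor, clustering resolution and, after seeing the data, the Y-linked UMIs and proliferation value of the cells compared.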

Additional observations from a re-analysis of the deposited data

Results flagged for a closer look

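Barcodes that failed the cell filter entered no comparison. In the library labelled RUNX1, 129 of these 691 barcodes (18.7%, 15.8 to 21.8, exact Clopper-Pearson) carried a UMI of C1orf141, LINC00967 or STON1-GTF2A1L, a signal in unused data. Among the passing cells of that library 576 of 4800 (12.0%, 11.1 to 13.0) carried one. None of the 475 control barcodes that failed the filter did, which allows a share of up to 0.774%. The failed RUNX1-library barcodes held 601 UMIs of the 3 genes.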

How the results depend on the processing

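With 1 library, no value has a replicate check. Over all non-cycling cells 313 genes passed 2-fold upward and 118 downward. The higher count was 563 with members by LINC00967 alone, 1177 under 10% mitochondrial UMIs (40 members and 259 other cells), 181 with TMM factors, 486 and 89 at gene floors of 1 and 50 CPM, and 122 among cells with 3 or more Y-linked UMIs. The lower count was 191 by C1orf141 alone, 205 by LINC00967 alone, 358 under 10% mitochondrial UMIs, 212 with totals without mitochondrially encoded and ribosomal protein genes, 194 with TMM, 193 and 41 at floors of 1 and 50 CPM, 64 at 3 or more Y-linked UMIs and 263 at 0. The cause was not tested. In each other alternative, chosen after seeing the data or not, both counts stayed within 1.5 times.

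Directions turned in some alternatives, also for list medians near 0 that are not given here. The median of the Y-linked list was -0.090 among cells with 3 or more Y-linked UMIs, where UTY was at -0.076, UPB1 at 0.089 and CTSZ at 0.28. The immediate early median was -0.067 by C1orf141 alone. The NK marker median was -0.42 by C1orf141 alone and -0.68 at 0 Y-linked UMIs. At 0 Y-linked UMIs (53 members) PDK1 was at -0.38, CD72 at 0.034, KLF9 at -0.11 and TMEM114 at 0.056. FOSB, with 1 UMI in these members, was at -1.83 (-7.14 to 0.68), or -0.24 with that UMI raised to the ranking floor of 3. VPREB1 was at 0.22 there. Under 10% mitochondrial UMIs RP11-290F5.2 was at 0.87 and TNFAIP3 at 0.48. Of 69 named genes past 2-fold, 27 lay below it at 3 or more Y-linked UMIs, 35 at 0, 16 under 10% mitochondrial UMIs, 8 with TMM and 0 to 6 elsewhere. The highest share of members in a cluster was 63.0%, 75.6% at resolution 1.0 and 68.6% without Y-linked genes. The largest part of all members held by 1 cluster was 66.2%, 44.8% at resolution 1.0 and 66.8% without Y-linked genes. With both changes that part was 35.4%. No paired analysis was possible because the result comes from no test and both groups of cells come from 1 library.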

Other observations

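Medians of further lists are to be read against 0.14 over all measured genes. Of 20 glycolysis and hypoxia genes 3 were higher and 0 lower in members (median 0.0063), among them PDK1 at 50.4 CPM in members and 13.1 CPM in the other non-cycling cells and BNIP3L at 182 and 95.9 CPM. Interferon response genes had 14 measured members, 2 higher and 4 lower (-0.11), with IRF7 at 30.2 and 64.9 CPM. IRF7 was at 26.5 CPM in members and 27.7 CPM in the other cells with 3 or more Y-linked UMIs (log2 -0.06, -0.41 to 0.28). In cells with 0 it was at 59.0 and 78.4 CPM (-0.41, -0.95 to 0.08). Of 10 MHC class I and peptide loading genes 1 was higher and 0 were lower (0.10), HLA-C being at 589 and 347 CPM. Of 29 nuclear respiratory chain genes 0 were higher and 1 lower (0.014), ATP5G1, at 119 and 198 CPM. Of 11 CDK inhibitors and G1 cyclins 2 were higher and 2 lower (0.14). CDKN1C, a cell cycle inhibitor, was at 26.0 and 9.58 CPM, and CCND3, a G1 cyclin, at 67.4 and 144 CPM. Among cells with 3 or more Y-linked UMIs CDKN1C was at 29.1 and 23.6 CPM (log2 0.30, -0.05 to 0.65). In cells with 0 it was at 3.47 and 4.65 CPM (-0.42, -3.49 to 1.48). CCND3 stayed lower in members, at log2 -0.72 with 3 or more and -0.73 with 0. The lists of NFkB, sterol and fatty acid synthesis, DNA methylation and Polycomb, S phase, G2/M, BCL2 family, actin and vimentin, adhesion receptor and mitochondrially encoded genes had medians between -0.15 and 0.16. Of 4 measured plasma cell markers 0 were higher and 3 lower (-0.69), and of 4 plasmacytoid dendritic cell markers 0 were higher and 2 lower (-0.43).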
